A study of Rattus norvegicus with 9 samples.

Results

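Srf, Elk1, Elk3, Elk4, Mef2a, Mef2c and Mef2d encode transcription factors whose proteins relay neuronal activity to the nucleus. They were taken by symbol from the deposited expression table, where each symbol has 1 entry, and they make up 7 of its 32623 entries. All 7 passed the filter on low counts and were tested.

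The RNA came from primary cortical neurons of Wistar rat embryos (embryonic day 16 to 18) that were treated with alternating current (ACS), with direct current (DCS, written DES in the sample titles) or with no current (control), with 3 libraries per group. According to the labels, the current was 3 µA for 20 min over 7 days, and the study's text gives such durations per day. The labels print 20 Hz for both kinds of current, whereas the study's text gives a frequency for ACS alone. The study places all its neurons on glass coated with conductive indium tin oxide, and the labels name plates coated with poly-L-lysine. Whether libraries of 1 group stem from different cultures is not stated in the labels or the methods, and p-values therefore cover only the spread between these samples, which may be technical.

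Libraries held 49039412 to 68690760 estimated counts. Low counts pile up at multiples of 4 (34.1% of the counts from 1 to 15 are 4, 8 or 12), so a fragment may add about 4, which would give 12259853 to 17172690 fragments. The summed FPKM of 10 neuronal markers was 2287 to 2399 in ACS, 2195 to 2367 in DCS and 2171 to 2256 in control. Tubb3 and Stmn2, with means of 1123 and 702 FPKM, made up most of this sum. Neither was called, and both overlapped between ACS and control. All 7 endothelial markers in the table and all 7 fibroblast and mural markers averaged under 1 FPKM. The 7 astrocyte markers summed to 212 to 292 FPKM in ACS, 257 to 264 in DCS and 262 to 271 in control, so glial RNA was also present. The lowest of these sums was in ACS 1, where Slc1a3 had 53.5 FPKM, against 115 and 125 FPKM in ACS 2 and ACS 3. In bulk RNA, fewer cells of a type and less RNA per cell cannot be told apart.

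Srf, serum response factor, is a MADS box protein that binds the CArG box, a motif with a run of A and T between paired C and paired G. It works with either of a pair of partner groups. The ternary complex factors Elk1, Elk3 and Elk4 are ETS proteins that MAP kinases phosphorylate, and they drive immediate early genes such as Fos and Egr1. The Mrtf coactivators are released from monomeric actin when filaments form, and they drive cytoskeletal genes. Mef2a, Mef2c and Mef2d are also MADS box proteins, which class IIa histone deacetylases repress and which calcium signals release through calcineurin and kinases. In neurons they are known for limiting synapse number and for supporting survival. Much of this control acts on the proteins, which RNA-seq does not measure.

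The promoter of Srf is shown first because it holds the motif that Srf itself binds. RefSeq windows (rat assembly GRCr8, from 250 bases before to 50 bases after a transcript start) were given for 6 of the 7 genes, all except Mef2c. Both strands were searched for the CArG box, the MEF2 box (the A and T rich motif of Mef2 proteins), CCGGAAG (a core bound by ETS proteins) and TGACGTCA (the element bound by Creb). The sequences are the bases before the start, 5′ to 3′ on the strand of the gene, with matches in capitals.
Srf, chr9:21923826-21924075, plus strand: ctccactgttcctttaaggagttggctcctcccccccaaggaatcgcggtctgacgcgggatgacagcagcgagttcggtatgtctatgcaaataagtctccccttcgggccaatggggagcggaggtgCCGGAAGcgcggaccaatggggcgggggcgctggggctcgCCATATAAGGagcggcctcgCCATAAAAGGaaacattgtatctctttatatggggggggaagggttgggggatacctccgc
Mef2a, chr1:130392163-130392412, minus strand: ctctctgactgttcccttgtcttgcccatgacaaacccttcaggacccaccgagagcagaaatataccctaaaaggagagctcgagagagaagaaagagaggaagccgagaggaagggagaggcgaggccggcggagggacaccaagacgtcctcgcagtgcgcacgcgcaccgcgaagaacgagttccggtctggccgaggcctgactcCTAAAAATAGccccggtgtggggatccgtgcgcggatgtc

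The Srf window held 2 CArG boxes, at 81 to 72 and 61 to 52 bases before the start, and CCGGAAG at 121 to 115 bases before it. The Mef2a window held 1 MEF2 box, at 40 to 31 bases before the start. In 1 of the 3 windows of Elk4, CCGGAAG lay 59 to 53 bases before the start. None of the 4 motifs was found in the windows of Elk1, Elk3 and Mef2d. Of all 33469 windows, 1.64% held a CArG box, 3.29% a MEF2 box, 8.75% CCGGAAG and 1.83% TGACGTCA. A match describes letters and shows no binding.

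The table names no genome build, and its positions are given as they stand there. Srf (ENSRNOG00000018232) lies on the plus strand of chromosome 9 from 16737642 to 16747225. Elk1 (ENSRNOG00000010171) lies on the plus strand of chromosome X from 1297099 to 1304822, Elk3 (ENSRNOG00000004367) on the minus strand of chromosome 7 from 34086220 to 34121694 and Elk4 (ENSRNOG00000007887) on the plus strand of chromosome 13 from 48790509 to 48813260. Mef2a (ENSRNOG00000047756) spans 131293 bases on the minus strand of chromosome 1, from 128209971 to 128341263. Mef2c (ENSRNOG00000033134), the longest of the 7 genes, spans 164220 bases on the plus strand of chromosome 2, from 11658568 to 11822787, and carries 10 transcripts in the table. Mef2d (ENSRNOG00000031778) lies on the plus strand of the same chromosome from 187512164 to 187538026. The values are sums per gene and do not separate transcripts or exons.

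FPKM, fragments scaled to transcript length and library size, is a per-length scale on which genes can be set side by side. Mef2c was the most abundant of the 7 genes, with a mean of 72.4 FPKM over the 9 libraries, and 6.37% of the tested genes were higher. Elk1 (23.5 FPKM), Mef2d (22.8 FPKM) and Mef2a (21.6 FPKM) came next. The ranges of these 3 genes over the libraries overlapped, so their order is not resolved. Srf averaged 11.9 FPKM, Elk4 8.54 FPKM and Elk3 3.76 FPKM. Mef2c was 3.08 times Elk1 and 19.3 times Elk3 by mean FPKM. Elk3, also called Net, is a ternary complex factor best known as a repressor and for its role in vessels, and 65% of the tested genes were higher than it.

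**Figure D1:**
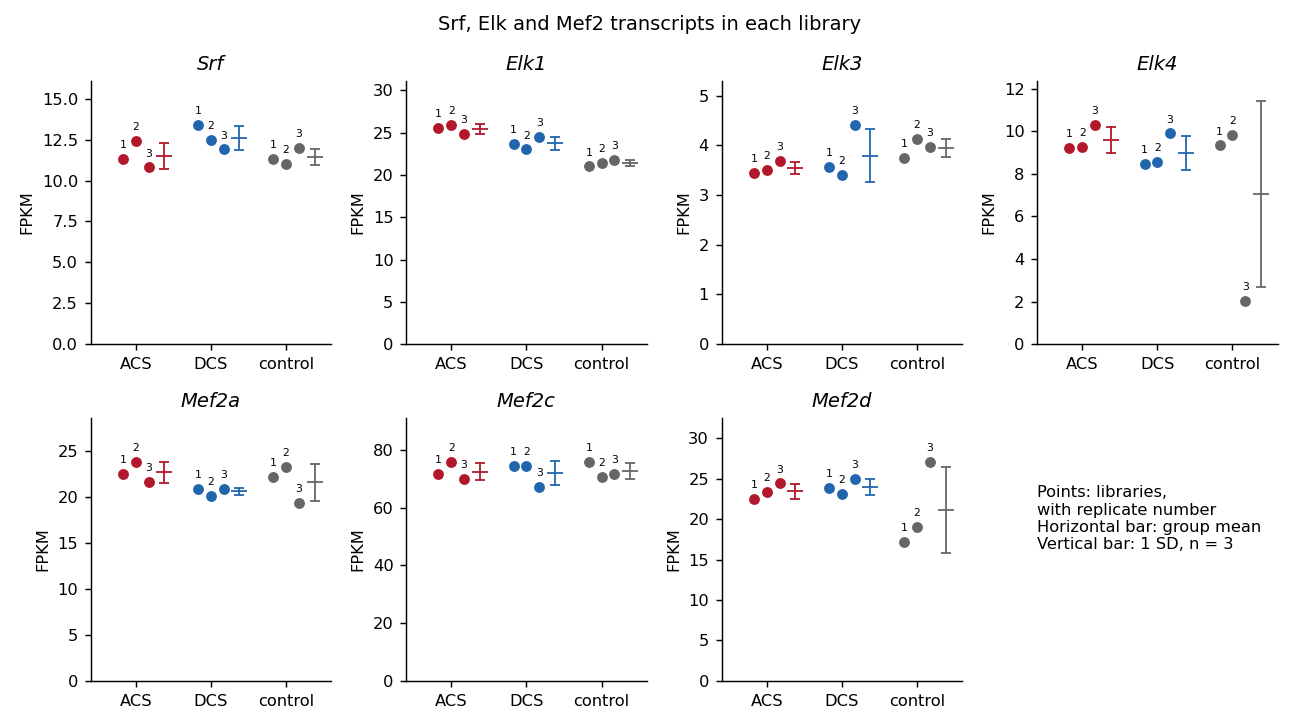
FPKM (vertical axes, from 0) of the 7 genes in ACS, DCS and control libraries, with points for libraries and their replicate numbers, and the group mean and SD (n = 3) beside them. Elk1 steps down by group without overlap, whereas in Elk4 a single control library sits at 2.02 FPKM and in Mef2d the controls run from 17.2 to 27.1 FPKM.

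The gene that passed the test was Elk1. It had 25.5, 25.9 and 24.8 FPKM in the ACS libraries, 23.7, 23 and 24.5 FPKM in the DCS libraries and 21, 21.4 and 21.8 FPKM in the control libraries. Every ACS library was above every DCS library, and every DCS library above every control library. This order was found in 146 of 16284 tested genes (0.897%), a count that leaves out genes with the reverse order. In CPM (counts scaled to library size alone), Elk1 averaged 69.7 ± 1.67 in ACS and 58 ± 0.578 in control (SD, n = 3 each). Elk1 rose by 20% in ACS against control, a log2 fold change of 0.26 (standard error 0.04, 95% interval 0.17 to 0.36, adjusted p = 0.0118 by edgeR's quasi-likelihood test with Benjamini-Hochberg adjustment over all tested genes). Of the tested genes, 29.4% had an absolute change at least as large. The control libraries of Elk1 differed by 1.02 times from lowest to highest, and 97.8% of 9867 genes with a mean of at least 10 CPM were at least as spread.

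Under DCS, Elk1 had a log2 fold change of 0.14 against control (95% interval 0.04 to 0.24), with no overlap between the libraries, and it did not pass the test (adjusted p = 0.692 by edgeR). In ACS against DCS the log2 fold change was 0.12 (95% interval 0.03 to 0.22), again without overlap (adjusted p = 0.238 by edgeR), so the responses of Elk1 to the currents were not shown to differ. The ACS call was made in 14 of 18 alternative analyses, with log2 fold changes of 0.24 to 0.28 and adjusted p-values of 6.42e-05 to 0.0615. It was lost without ACS 1 (adjusted p = 0.0593), ACS 2 (0.0604), control 1 (0.059) or control 2 (0.0615), each by edgeR. Some markers of cell types were called in the same comparison, in which 4.16% of all tested genes were called. Of 10 neuronal markers, 1 was called higher in ACS against control (Rbfox3, the NeuN antigen, at 0.43 on the log2 scale). Of 8 progenitor and cell division markers, 3 were called lower, among them Hes5, a Notch target, at -1.54. The summed FPKM of these 8 was 249 to 267 in ACS, 280 to 305 in DCS and 286 to 298 in control, and 1 marker alone averaged 159 FPKM. Of 7 astrocyte and 9 microglial markers, 1 each was called higher (Gfap at 0.25 and C1qa at 0.76). Log2 fold changes were above 0 in 7 of the 10 neuronal, 5 of the 7 astrocyte and 5 of the 9 microglial markers. They were above 0 in 3 of the 8 progenitor markers. Map2, Slc1a3 and Ptprc were at -0.34, -0.30 and -0.57 without a call. The microglial sums overlapped (57.6 to 59 FPKM in ACS, 56.3 to 59.1 FPKM in control). The calls of Rbfox3 and Hes5 held in all 18 alternatives, whereas those of Gfap and C1qa were lost in 6 and 4 of them. The other progenitor markers called lower, Mki67 at -0.22 and Vim at -0.19, lost the call in 11 and 10 of them. Their part in the change of Elk1 was not tested.

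The 3 genes whose log2 CPM followed Elk1 most closely over the 9 libraries, among 11597 genes compared, were Tle2 (r = 0.969), Zmynd10 (r = 0.965) and R3hdm4 (r = 0.963). The value of r at the 99th percentile of genes was 0.899. The 9 libraries share their groups, so these values describe a common profile. Tle2 encodes a Groucho family corepressor. It rose by 0.85 on the log2 scale in ACS against control, and Zmynd10 and R3hdm4 rose by 1.23 and 0.40 (adjusted p = 0.00156, 0.000361 and 0.00287 by edgeR). All 3 were chosen for their likeness to Elk1 over the same libraries, so their rise is no separate evidence.

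Of the 7 genes, 1 was called in ACS against control, beside 4.16% of all tested genes. None was called in DCS against control, beside 0.0123% of all tested genes, nor by DESeq2 or limma, and 1 of the 7 (Elk1) had an unadjusted p under 0.05, beside 7.09% of all genes. None was called in ACS against DCS, beside 0.633% of all tested genes, nor by DESeq2 or limma. There 2 of the 7 (Elk1 and Mef2a) had an unadjusted p under 0.05, beside 13.9% of all genes. Groups did not overlap in 2 genes for ACS against control (27.1% of all tested genes), in 1 gene for DCS against control (11.1%) and in 2 genes for ACS against DCS (21.4%). The median log2 fold change of the 7 was 0.0863, 0.129 and 0.0335 in these 3 comparisons, against -0.00287, 0.00275 and -0.00209 for all tested genes. ACS and DCS share their control libraries, so the first 2 comparisons are not independent of each other.

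**Figure D2:**
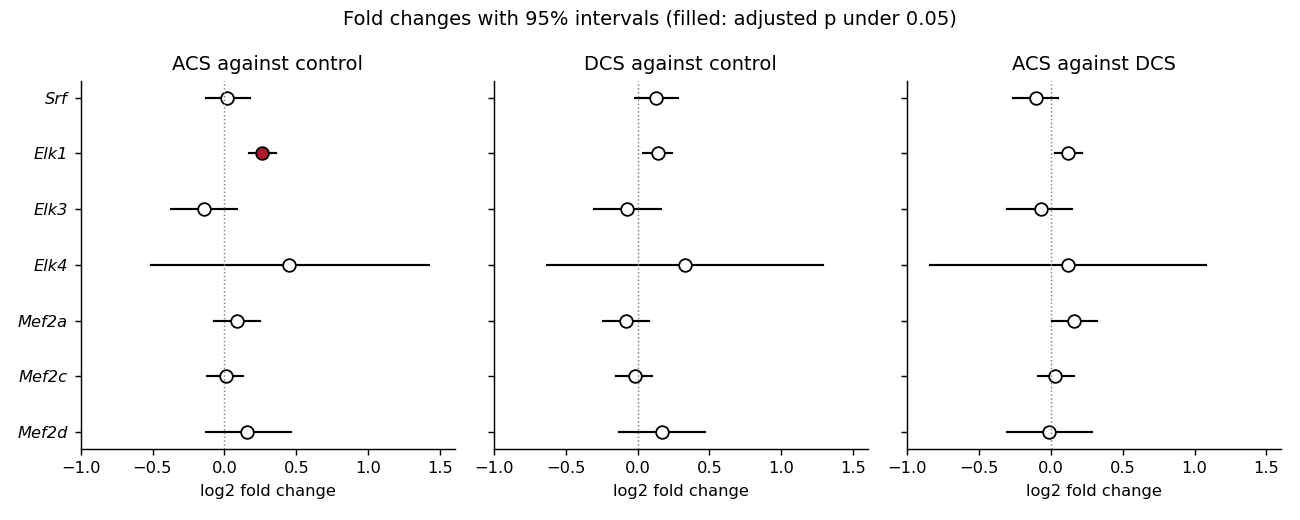
Log2 fold changes (horizontal axes) of the 7 genes in the 3 comparisons, with 95% intervals from edgeR and a filled point where the adjusted p was under 0.05. The filled point is Elk1 in ACS against control at 0.26, and the interval of Elk4 in that comparison spans -0.51 to 1.42.

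Srf had 11.3, 12.4 and 10.8 FPKM in ACS, 13.4, 12.5 and 11.9 FPKM in DCS and 11.3, 11 and 12 FPKM in control. The groups overlapped in each comparison, with the highest value in a DCS library. Srf had a log2 fold change of 0.02 in ACS against control (95% interval -0.13 to 0.18, adjusted p = 0.873) and 0.13 in DCS against control (95% interval -0.02 to 0.28, adjusted p = 0.703), both by edgeR. In ACS against DCS it was -0.10 (95% interval -0.26 to 0.05, adjusted p = 0.554). These intervals leave room for changes of up to 0.28 on the log2 scale. The Srf promoter holds CArG boxes like those of the early genes described below, while its RNA did not pass the test in any comparison.

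Elk3 had 3.44, 3.5 and 3.68 FPKM in ACS, 3.56, 3.41 and 4.41 FPKM in DCS and 3.75, 4.12 and 3.96 FPKM in control. All ACS libraries were below all control libraries, and DCS overlapped both. Its log2 fold change in ACS against control was -0.14 (95% interval -0.37 to 0.09, adjusted p = 0.47 by edgeR). Elk3 rests on the fewest counts of the 7 genes, 680 to 1190 per library. The endothelial markers summed to 0.849 to 1.16 FPKM in ACS, 0.395 to 1.1 FPKM in DCS and 0.802 to 1.12 FPKM in control.

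Elk4, also called Sap1, is a ternary complex factor closely related to Elk1. It had 9.21, 9.25 and 10.3 FPKM in ACS, 8.46, 8.56 and 9.9 FPKM in DCS and 9.34, 9.81 and 2.02 FPKM in control. A single library, control 3, set the control group apart. It had 21.7 CPM of Elk4, which is 0.236 times the lowest of the other 8 libraries, whose range was 92 to 113 CPM. Only 39 of 9867 genes with a mean of at least 10 CPM (0.395%) were as spread among the controls as Elk4. In control 3, 8 of these genes were more than 2 times below the lowest other library, and 4 to 16 genes were so in each of the other libraries.

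Nucks1 and Slc41a1, which lie near Elk4 on the chromosome, showed no such drop in control 3. Nucks1 had 156 CPM in control 3 and 156 to 172 CPM in the others, and Slc41a1 had 54.6 CPM in control 3 and 47.2 to 55.7 CPM in the others. Mfsd4a, which overlaps Elk4 on the other strand, had 0.946 CPM in control 3 and 0.28 to 1.43 CPM in the others, too low to show a drop. The genes with a profile most like that of Elk4 were Abl1 (r = 0.995), Hiatl3 (r = 0.992) and Ccnj (r = 0.992). These also had their lowest value in control 3. Abl1, a tyrosine kinase, had 0 CPM there and 43.5 to 79.5 CPM elsewhere. Hiatl3 had 0.574 CPM there and 30.3 to 35.9 CPM elsewhere. Ccnj, a cyclin, had 0 CPM there and 18.4 to 21.7 CPM elsewhere. By rank, the correlations with Elk4 were 0.383, 0.483 and 0.333, so the likeness rests on control 3.

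Elk4 had a log2 fold change of 0.45 in ACS against control (95% interval -0.51 to 1.42, adjusted p = 0.595) and 0.33 in DCS against control (95% interval -0.63 to 1.29, adjusted p = 0.864), by edgeR. Without control 3 these became 0.01 (adjusted p = 0.951) and -0.11 (adjusted p = 0.507). The summed FPKM of the 3 Elk genes was 38.2 to 38.8 in ACS, 35 to 38.8 in DCS and 27.7 to 35.3 in control, where the lowest value is again control 3. Elk1 made up 63.9% to 67% of that sum in ACS and 63.1% to 66.3% in DCS. In control its shares were 61.6% and 60.6% in control 1 and 2, and 78.4% in control 3.

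**Figure D3:**
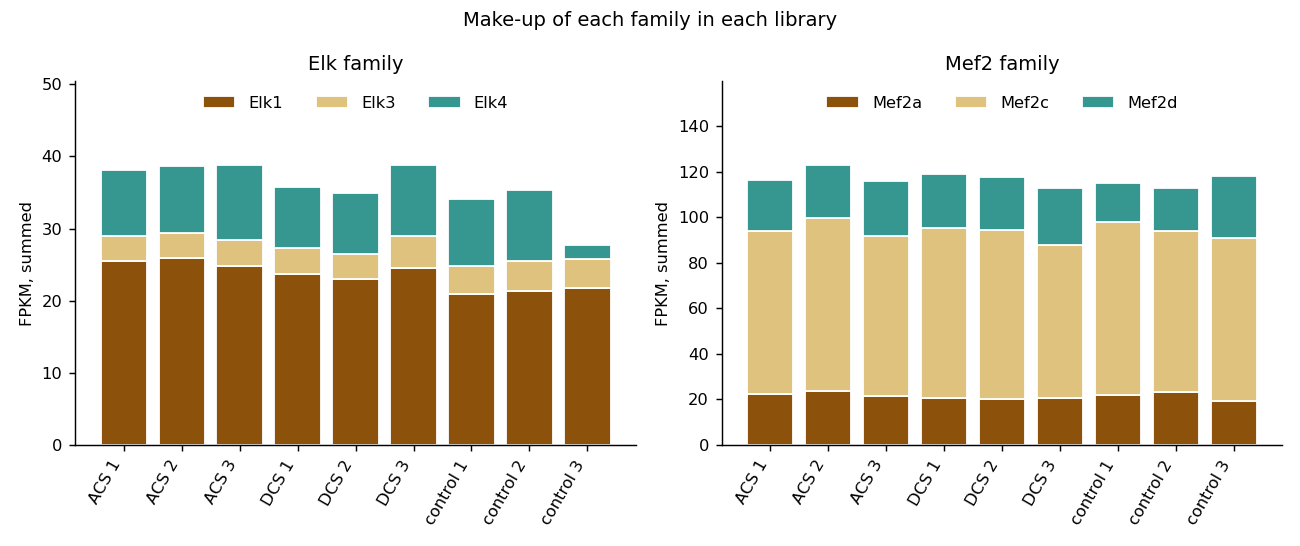
FPKM of the Elk genes (left) and of the Mef2 genes (right), stacked for each library (vertical axes, from 0). The Elk sum is 27.7 FPKM in control 3, where Elk4 is low, and Mef2c forms 59.4% to 65.8% of the Mef2 sum in all 9 libraries.

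Mef2c is the Mef2 gene of highest level in these cultures and is linked in people to an intellectual disability syndrome. It had 71.5, 75.7 and 70 FPKM in ACS, 74.3, 74.4 and 67.1 FPKM in DCS and 75.9, 70.6 and 71.7 FPKM in control. All groups overlapped. With 24489 to 32283 counts per library it was the most deeply covered of the 7 genes. The log2 fold change was 0.01 in ACS against control (95% interval -0.12 to 0.13, adjusted p = 0.947) and -0.02 in DCS against control (95% interval -0.15 to 0.10, adjusted p = 0.932), by edgeR. Its share of the Mef2 sum was 60.4% to 61.6% in ACS, 59.4% to 63.3% in DCS and 60.6% to 65.8% in control.

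Mef2a, the gene with the MEF2 box in its promoter window, had 22.5, 23.8 and 21.6 FPKM in ACS, 20.8, 20.1 and 20.8 FPKM in DCS and 22.1, 23.2 and 19.3 FPKM in control. ACS was above DCS in every library, and control overlapped both. Its log2 fold change in ACS against DCS was 0.16 (95% interval 0.01 to 0.32, adjusted p = 0.345 by edgeR). Against control it was 0.09 in ACS (adjusted p = 0.531) and -0.08 in DCS (adjusted p = 0.808). Control 3 was the lowest library for Mef2a and the highest for Mef2d. Without it, the value in ACS against control was 0.01 (adjusted p = 0.95) and that in DCS against control -0.16 (adjusted p = 0.172).

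Mef2d had 22.5, 23.4 and 24.4 FPKM in ACS, 23.8, 23.1 and 25 FPKM in DCS and 17.2, 19 and 27.1 FPKM in control. The ACS and DCS libraries overlapped. Control 1 and control 2 were below all 6 stimulated libraries, and control 3 was above all of them. In CPM the controls had 38.4, 42.2 and 59.4, a ratio of 1.55 from lowest to highest, and 1.94% of 9867 genes were as spread among the controls. The log2 fold change was 0.16 in ACS against control (95% interval -0.13 to 0.46, adjusted p = 0.524) and 0.17 in DCS against control (95% interval -0.13 to 0.47, adjusted p = 0.774), by edgeR. Without control 3, the log2 fold change was 0.38 in each, and the call was made for ACS (adjusted p = 0.0101) and not for DCS (adjusted p = 0.0514). Without that library, 9.11% of all tested genes were called in ACS against control and 0.289% in DCS against control. The total of control 3, 63969996 counts, lay between those of control 1 and control 2.

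**Figure D4:**
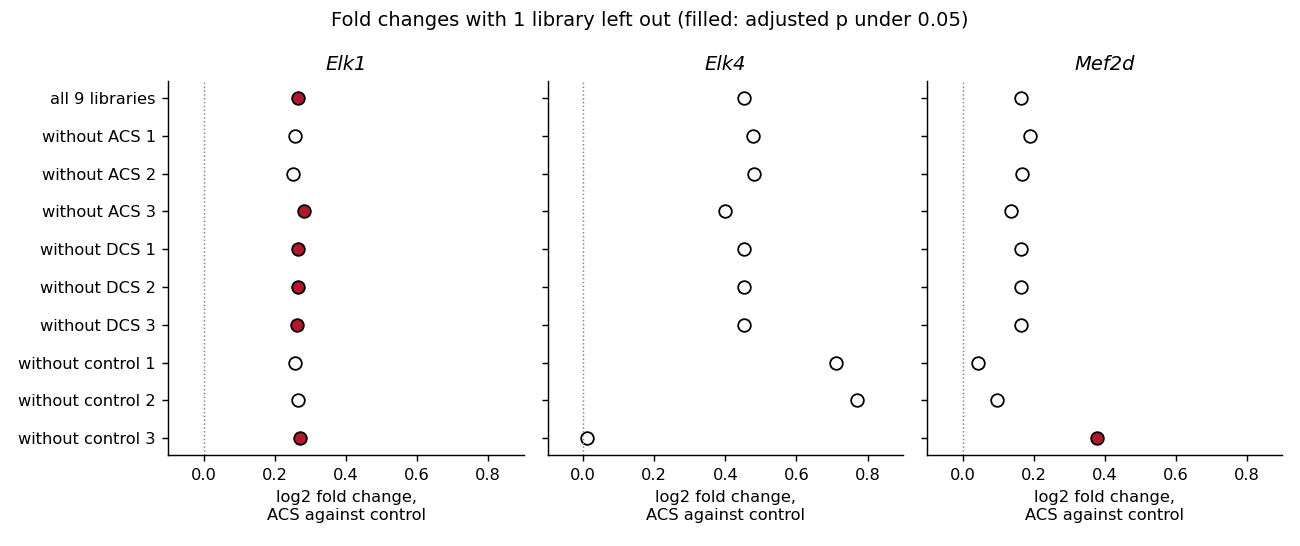
Log2 fold change in ACS against control (horizontal axes) of Elk1, Elk4 and Mef2d with all 9 libraries and with each library left out, filled where the adjusted p was under 0.05. Elk1 stays between 0.25 and 0.28, whereas without control 3 Elk4 drops to 0.01 and Mef2d reaches 0.38.

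Mef2b, the remaining Mef2 gene, was at or near 0 in all libraries, with at most 15 counts, and was not tested. For the other genes the closest profiles over the 9 libraries were those of Zdhhc7 with Srf (r = 0.944), Ifih1 with Elk3 (r = 0.975), Gng2 with Mef2a (r = 0.974), Klhl32 with Mef2c (r = 0.958) and Rab11fip3 with Mef2d (r = 0.98).

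Genes upstream and downstream of these factors were then counted by list. Over all tested genes, 4.16% were called in ACS against control, 0.0123% in DCS against control and 0.633% in ACS against DCS. In the same order, 20.8%, 7.09% and 13.9% had an unadjusted p under 0.05, and 27.1%, 11.1% and 21.4% had groups without overlap. The lists were chosen with earlier results of these data known, and the study names several of the early genes from these very libraries. The early gene counts therefore do not stand as separate evidence. By qRT-PCR, the study also reports higher Fos, Egr, Nr4a1 and Arc transcripts after ACS. Of 11 tested early response targets of Srf and the ternary complex, 10 rose and none fell in ACS against control, with a median log2 fold change of 2.17. The count was 7 to 11 over the alternatives, and 11 without control 3. Egr1, a zinc finger factor, had 62.9, 56.5 and 71 FPKM in ACS and 11, 15.1 and 16.5 FPKM in control. Fos, a subunit of AP-1, had 57.2, 47.9 and 62.3 FPKM in ACS and 9.18, 8.55 and 12.6 FPKM in control. Their log2 fold changes were 2.18 and 2.48 (adjusted p = 0.000301 and 0.000361 by edgeR). Nr4a1, an orphan nuclear receptor, rose by 2.63, and Junb and Ier2 rose by 1.12 and 1.13 on the same scale. Srf, with 11.5 ± 0.822 FPKM in ACS and 11.4 ± 0.518 FPKM in control (SD, n = 3 each), did not pass the test while these targets did.

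Under DCS none of the 11 was called against control, nor by DESeq2 or limma, and 1 had an unadjusted p under 0.05. In ACS against DCS, 7 of the 11 were called, all higher in ACS.

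RefSeq windows were given for 9 of the 12 listed early genes, and 2 of these, Egr1 and Egr2, held a CArG box. CCGGAAG was found in 1 gene (Mcl1), TGACGTCA in 1 (Ier2) and the MEF2 box in none. Motifs more than 250 bases before the start are not covered. The CArG boxes of Egr1 and Egr2 are shown with 10 bases on each side, with some of those of Srf and of the actin-linked genes. Among those left out are the proximal box of Srf, marked in its window above, and the boxes of Fhl2 and Actc1. All boxes shown stand before the start and read 5′ to 3′ on the strand of the gene (GRCr8).
Srf, distal box, chr9:21923985-21924014, plus strand: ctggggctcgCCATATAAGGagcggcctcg
Egr1, distal box, chr18:26736963-26736992, plus strand: gtcggtccttCCATATTAGGgcttcctgct
Egr1, proximal box, chr18:26736985-26737014, plus strand: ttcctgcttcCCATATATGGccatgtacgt
Egr2, chr20:21054505-21054534, minus strand: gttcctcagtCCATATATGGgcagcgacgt
Actg1, chr10:106121022-106121051, minus strand: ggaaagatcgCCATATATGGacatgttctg
Cnn2, chr7:10370364-10370393, minus strand: cgcttccacgCCTTATAAGGgcatttgccc
Fhl1, chrX:139638384-139638413, plus strand: ccttggatcaCCTAAAATGGttaagaattt

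The box of Actg1, which encodes cytoplasmic gamma actin, has the same letters as the boxes of Egr2 and the proximal box of Egr1. Egr2 rose in ACS against control, with 2.35, 1.97 and 2.14 FPKM in ACS and 0.301, 0.545 and 0.558 FPKM in control (log2 fold change 2.21, adjusted p = 0.00536 by edgeR). Actg1 had 2082, 2130 and 1864 FPKM in ACS and 1999, 1950 and 2377 FPKM in control, and the groups overlapped (log2 fold change -0.04, adjusted p = 0.816 by edgeR, 0.04 without control 3). Cnn2, a calponin, had 14.7, 15.5 and 16.7 FPKM in ACS and 15.2, 15.7 and 17.9 FPKM in control, again with overlap (-0.05, adjusted p = 0.848 by edgeR, 0.02 without control 3). Egr2, Actg1 and Cnn2 were chosen for their boxes after their values were seen, so the contrast between them was fixed by that choice. Fhl1, whose box is also shown, rose by 0.45, as given below. Fhl2, whose boxes are not shown, was at -0.18 (adjusted p = 0.425 by edgeR), with overlap. The part of the boxes in these changes was not tested.

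Of 19 tested actin-linked targets of Srf and the Mrtf coactivators, 2 rose and none fell in ACS against control, with a median log2 fold change of 0.164. The count was 2 in every alternative. Flna, the actin crosslinker filamin A, had 58.6, 58.1 and 62.1 FPKM in ACS and 42.9, 42.8 and 49 FPKM in control (log2 fold change 0.42, adjusted p = 0.00342 by edgeR). Fhl1, a LIM domain protein, had 45.8, 50.5 and 45.3 FPKM in ACS and 36.7, 34.1 and 33.8 FPKM in control (0.45, adjusted p = 0.0038 by edgeR). Neither overlapped between the groups, and 27.1% of all tested genes did not. Actb, cytoplasmic beta actin, overlapped, with 2229, 2321 and 2142 FPKM in ACS and 1902, 1965 and 2451 FPKM in control. None of the 19 was called in DCS against control, nor by DESeq2 or limma. Of them, 4 had an unadjusted p under 0.05, beside 7.09% of all tested genes. CArG boxes were found in 5 of the 18 genes of this list that have windows, and that of Actc1 lies after the start.

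None of 6 tested coactivators and actin switch genes was called in ACS against control, and 2 had an unadjusted p under 0.05, beside 20.8% of all tested genes. These were Rock1 (0.25) and Rock2 (-0.17), kinases that act below the GTPase Rhoa, both called by DESeq2 and neither by limma. Without control 3, 1 gene of this list was called higher and 1 lower. None of 21 MAP kinase genes on the route to the Elk proteins was called in ACS against control, nor by DESeq2 or limma, and 1 had an unadjusted p under 0.05, against the same 20.8%. Their median log2 fold change was -0.0031. Mapk3, a kinase of the ERK step, had a log2 fold change of 0.08. Without control 3, it was called (0.13, adjusted p = 0.0427 by edgeR). No gene of either list was called in DCS against control, nor by DESeq2 or limma, and none had an unadjusted p under 0.05.

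**Figure D5:**
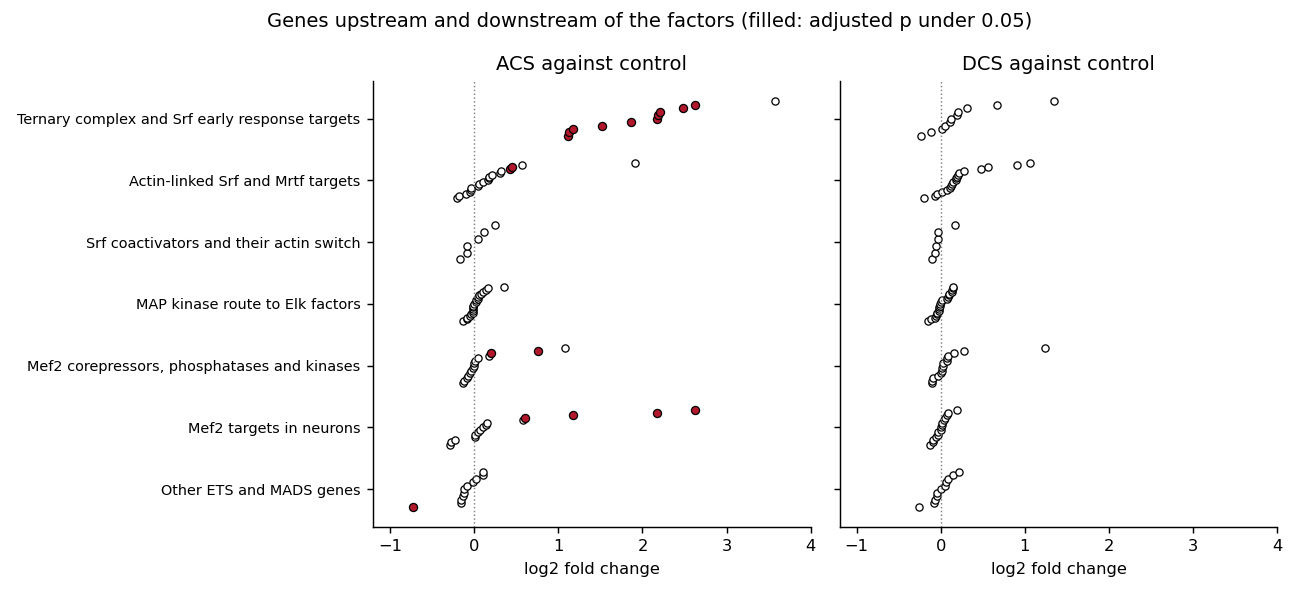
Log2 fold changes (horizontal axes) of the tested genes of 7 lists in ACS against control (left) and DCS against control (right), with a point for each gene, filled where the adjusted p was under 0.05. In ACS against control 10 of 11 early response targets are filled and none of the 21 MAP kinase genes is, while in DCS against control no point is filled.

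Of 15 corepressors, phosphatases and kinases that act on Mef2 proteins, 2 rose and none fell in ACS against control, and the median log2 fold change was -0.00433. Both encode class IIa histone deacetylases, which bind Mef2 proteins and repress their targets. Hdac4 and Hdac9, the other class IIa genes of the list, were at -0.08 and -0.13 on the log2 scale without a call. All ACS libraries were below all control libraries for Hdac9, and Hdac4 overlapped. Hdac7 had 7.22, 8.32 and 8.11 FPKM in ACS and 5.08, 3.92 and 5.14 FPKM in control (log2 fold change 0.76, adjusted p = 0.00957 by edgeR, and 0.046 or less in all alternatives). Hdac5 had 51.4, 53.1 and 53.3 FPKM in ACS and 43.1, 45.9 and 49.3 FPKM in control (0.20, adjusted p = 0.0484 by edgeR). The groups did not overlap for either gene. The call of Hdac5 was lost in 12 of 18 alternatives, with adjusted p-values of 0.00385 to 0.154 over them. It was lost when any of the 3 ACS libraries, DCS 1, DCS 2, control 1 or control 2 was left out, with log2 fold changes of 0.16 to 0.22 there. The Hdac5 window held a MEF2 box, and Hdac5 was the 1 gene with such a box among the 13 genes of this list with a window. Ppp3cb, a catalytic subunit of calcineurin, had a log2 fold change of -0.05. None of the 15 was called in DCS against control, nor by DESeq2 or limma. Beside 7.09% of all tested genes, 2 of the 15 had an unadjusted p under 0.05. These were again Hdac5 at 0.16 and Hdac7 at 0.28 (unadjusted p = 0.00919 and 0.0382 by edgeR), both without overlap. In ACS against DCS, Hdac5 was at 0.05 and Hdac7 at 0.48 (adjusted p = 0.737 and 0.101 by edgeR). DESeq2 called Hdac7 there (adjusted p = 0.00455). By edgeR, neither rise was shown to differ between the currents.

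Of 15 tested neuronal targets of Mef2 proteins, 4 rose and none fell in ACS against control, with a median log2 fold change of 0.104. They were Nr4a1, Jun, Fosb and Arc, all of them immediate early genes, and Nr4a1, Fosb and Arc also stand on the list of early response targets. Jun, a subunit of AP-1, had 54.2, 49.9 and 55 FPKM in ACS and 32.8, 35.3 and 38.3 FPKM in control (0.60, adjusted p = 0.00223 by edgeR). Fosb and Arc, whose product shapes synapses, rose by 2.17 and 1.18 at low levels, with means of 1 and 1.08 FPKM over all libraries. Fosb lost its call without any 1 of the ACS libraries, control 1 or control 2 (adjusted p = 0.055 to 0.0962 by edgeR), and Arc lost it in 9 of 18 alternatives, among them without any 1 of the ACS libraries, DCS 1, control 1 or control 2 (adjusted p = 0.0686 to 0.144 by edgeR). The other 11 targets did not pass the test. None of the 15 was called in DCS against control, nor by DESeq2 or limma, and none had an unadjusted p under 0.05.

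Of 11 other tested ETS and MADS genes, none rose and 1 fell in ACS against control, with a median log2 fold change of -0.119. The gene was Elf2, an ETS factor, with 8.25, 8.55 and 7.33 FPKM in ACS and 9.11, 15.9 and 15.5 FPKM in control (-0.73, adjusted p = 0.0468 by edgeR). The groups did not overlap, but control 1 was close to the ACS libraries. The call was lost in 12 of 18 alternatives, with adjusted p-values of 0.00175 to 0.164 over them, and with a library left out it was kept only without control 1. Elf2 was at -0.95 without control 1 and at -0.59 without control 2, the ends of that range. Etv5 and Gabpa, also ETS factors, had -0.13 and -0.09. None of the 11 was called in DCS against control, nor by DESeq2 or limma, and none had an unadjusted p under 0.05.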

How the data were processed

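Polyadenylated RNA of 9 libraries was sequenced with a stranded kit whose adapters carry unique molecular identifiers. The authors trimmed reads (fastp in the paper, cutadapt 1.9 in the submitters' processing notes), aligned them with HISAT2 2.0.4 and quantified genes with StringTie 1.3.4d; UMI-tools is also named, without its role. The deposited table holds FPKM, computed by the authors per kilobase of transcript and scaled to library size, and an estimated count per gene, given as a whole number. It names no genome build, so its positions are printed as given and kept apart from GRCr8.

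Counts were scaled by TMM and tested with edgeR 4.0.16 (R 4.3.3; quasi-likelihood F test, group as the one term, all 9 libraries). The filter (minimum count 10, minimum total 15) kept 16284 genes and removed 16339. Benjamini-Hochberg adjustment ran over these genes, and a call is an adjusted p under 0.05. Intervals are 95% and use the fit's own degrees of freedom. FPKM values were used for levels only, and in limma 3.58.1 on log2(FPKM + 1) and log2(FPKM + 0.1). The 18 alternatives per comparison were no filter, a mean FPKM of at least 1, scaling by median of ratios, a fit of only the 6 libraries compared, the replicate number as a block, DESeq2 1.42.0, counts divided by 4 and each library left out. Likeness is Pearson's r of log2 CPM (prior count 2) among tested genes with a mean FPKM of at least 1 and a gene symbol.

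The 7 genes, the 7 pathway lists and the 8 marker lists were chosen with earlier results of these data known. Named list genes are those called in ACS against control, up to 5 by smallest p, filled to 3 by FPKM; some named by this rule are not reported here. The alternatives for list counts were added after seeing the data. RefSeq windows came from GRCr8. No column of sample values was left unmapped.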

Additional observations from a re-analysis of the deposited data

Results flagged for a closer look

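The difference between ACS and DCS passed the test in 9 genes on the lists of targets, all higher in ACS. The log2 fold changes of ACS against DCS were 2.41 for Egr1, 2.59 for Fos, 1.00 for Junb, 2.44 for Nr4a1, 0.92 for Ier2, 0.63 for Jun, 0.34 for Fhl1, 1.75 for Ccn1 and 2.15 for Fosb (adjusted p = 0.00034, 0.000822, 0.00393, 0.00551, 0.0108, 0.00456, 0.0402, 0.0198 and 0.05 by edgeR, the last just inside the threshold). None of the 7 genes that encode the factors was among them. Ier2 lost this call without ACS 1, ACS 3 or DCS 2 (adjusted p = 0.054 to 0.0687 by edgeR), and Ccn1 without any 1 of the ACS libraries or DCS 2 (adjusted p up to 0.109). Fhl1 lost it in 11 and Fosb in 10 of 18 alternatives, with adjusted p-values up to 0.16 and 0.174. Without a library, the log2 fold change was 0.29 to 0.37 for Fhl1 and 1.85 to 2.87 for Fosb, the highest without DCS 3.

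The difference between ACS and DCS also passed the test in 2 of the 3 genes with a profile like that of Elk1, Tle2 at 0.52 and Zmynd10 at 0.63 on the log2 scale (adjusted p = 0.0377 and 0.0273 by edgeR), and in the markers Rbfox3 at 0.35 and Hes5 at -1.47 (adjusted p = 0.0486 and 0.0208). Tle2 was chosen for its likeness to Elk1 over the same libraries, as was Zmynd10. These calls were lost in 13 of 18 alternatives for Tle2, 7 for Zmynd10, 13 for Rbfox3 and 5 for Hes5. With a library left out, the value of Tle2 was 0.47 to 0.54, that of Rbfox3 0.30 to 0.38 and that of Hes5 -1.61 to -1.33.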

How the results depend on the processing

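Elk1 was called in ACS against control in all alternatives except those without ACS 1, ACS 2, control 1 or control 2, so the number of the 7 genes called there was 0 to 2 with a library left out, the higher value without control 3. All tested genes called with a library left out numbered 139 to 1484 in ACS against control, 1 to 47 in DCS against control and 27 to 186 in ACS against DCS, and the highest of each came without control 3. DESeq2 called 1652, 38 and 660 genes in these comparisons, against 678, 2 and 103 by edgeR. In DCS against control, 1 gene was called with the 6 libraries alone, with limma on log2(FPKM + 1) and with counts divided by 4. In ACS against DCS, limma called 64 genes with a pseudocount of 1 and 65 with 0.1. Correlations of same-numbered libraries were -0.0532 to 0.0631. They show no pairing by number but cannot exclude that same-numbered libraries share a culture. With the replicate block, 475, 1 and 59 genes were called, and Elk1 had an adjusted p of 0.0339 by edgeR in ACS against control.

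Of 378 fits of the 7 genes, 359 kept direction and side of the threshold and 14 changed sign, none of them called. With a library left out, the ranges that crossed 0 in ACS against control were -0.031 to 0.0676 for Srf and -0.0215 to 0.0452 for Mef2c, which was also at -0.0052 and -0.0053 with limma. In DCS against control they were -0.1818 to 0.0015 for Elk3, -0.11 to 0.6482 for Elk4 and -0.0551 to 0.0303 for Mef2c. In ACS against DCS they were -0.1429 to 0.04 for Elk3, -0.0216 to 0.0641 for Mef2c and -0.0346 to 0.0181 for Mef2d. Of the other genes named, Actg1 (-0.0936 to 0.0446) and Cnn2 (-0.0927 to 0.0216) crossed 0 in ACS against control. The cause was not tested. By Spearman's rho, at most 1 of the 3 closest genes of a member remained among its 3 closest. Intervals cover the spread between these libraries only.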
